A study of Arabidopsis thaliana with 18 samples.

Results

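After 8 h of light, etiolated Arabidopsis thaliana seedlings were compared with seedlings that had seen no light. The comparison used 6 of the 18 RNA sequencing libraries of the study, 3 of seedlings lit for 8 h after 7 days of darkness and 3 of seedlings taken at the end of the 7 days (0 h, called dark here). All 6 were polyA RNA of wild type seedlings grown from seed on MS medium, and by their labels the groups differed only in the 8 h of light. The members are all genes, chosen with no regard to direction: 20569 of the 24951 genes listed in any library passed the filter on low counts and were tested. No seedlings were kept in the dark for the added 8 h, so light, 8 h of extra age and time of day cannot be told apart. The labels do not say whether the 3 libraries of a group came from separate cultures, so the p-values measure the spread between these libraries, which may be technical. The other libraries, with 1, 2, 4 and 12 h of light, entered the estimate of the spread, and those of 4 and 12 h were set beside the 8 h libraries.

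A seedling that germinates in darkness elongates its hypocotyl, keeps its cotyledons closed and holds its plastids as etioplasts, which store a complex of protochlorophyllide and its reductase. Light acts through phytochromes and cryptochromes. The repressor COP1 then loses hold of transcription factors such as HY5, and the phytochrome interacting factors (PIFs), which keep the dark programme running, are removed. Etioplasts turn into chloroplasts, chlorophyll and the photosynthetic complexes are built, and stem elongation stops.

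Summed expected counts per library lay between 20072467 (8 h replicate 3) and 22760811 over the 18 libraries. One dark library stood apart. Dark replicate 3 correlated with dark replicates 1 and 2 at 0.953 and 0.949 across genes on the log2(FPKM + 1) scale, against 0.988 between those 2. FPKM is the level of a gene per length and library depth. The same library held more RNA of seed storage genes, with a summed level of 12880 FPKM against 1785 and 676, and of cytosolic ribosomal proteins, with 16564 against 8021 and 6830. It held less of the root endodermis genes CASP1 to CASP5, with 121 against 514 and 464. Calls that ended without this library, and counts of called list members that moved by over 1.5 times, are given with and without it. Among the light libraries, 8 h replicate 2 was lower than the others for photosynthesis genes. The title of the series speaks of leaves, while each sample is labelled as seedling. The endodermis genes and the shoot genes ATML1 (26.9, 27.4 and 25.7 FPKM in the dark, 35.6, 30.5 and 35.1 at 8 h) and YAB1 (20.1, 20.9 and 30.4 and 35.9, 17.5 and 34.05) were detected in every library. Of the 9 shoot genes listed, 7 passed the filter on low counts and 2 did not. The 7 root hair genes summed to at most 2.16 FPKM in any of the 6 libraries. In these samples of mixed tissue, fewer cells of a type and less RNA per cell cannot be told apart.

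After 8 h of light, 4641 genes (22.6% of those tested) had changed, 2789 upward (13.6%) and 1852 downward (9.0%). The rule for a change, in edgeR's quasi-likelihood test, was a fold of 2 or more in either direction (1 on the log2 scale) and an adjusted p (Benjamini-Hochberg) below 0.05. The median log2 fold change was 0.006 over all genes tested, 1.63 over the higher and -1.51 over the lower genes, or 1.62 and -1.50 with genes at or under 3 counts per library set at their bound. In 4273 of the 4641 genes (92.1%) the 3 light libraries and the 3 dark libraries did not overlap, against 49.4% of all genes tested. Large changes were common, with 377 genes higher and 259 lower by at least 3 on the log2 scale. The higher genes held 6.66%, 6.04% and 7.57% of the summed FPKM in the dark libraries and 29.6%, 23.6% and 28.8% after 8 h. The lower genes went the other way, from 18.1%, 20% and 19.0% to 5.92%, 7.01% and 5.70%. Without dark replicate 3 the counts were 3422 higher and 1920 lower.

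**Figure D1:**
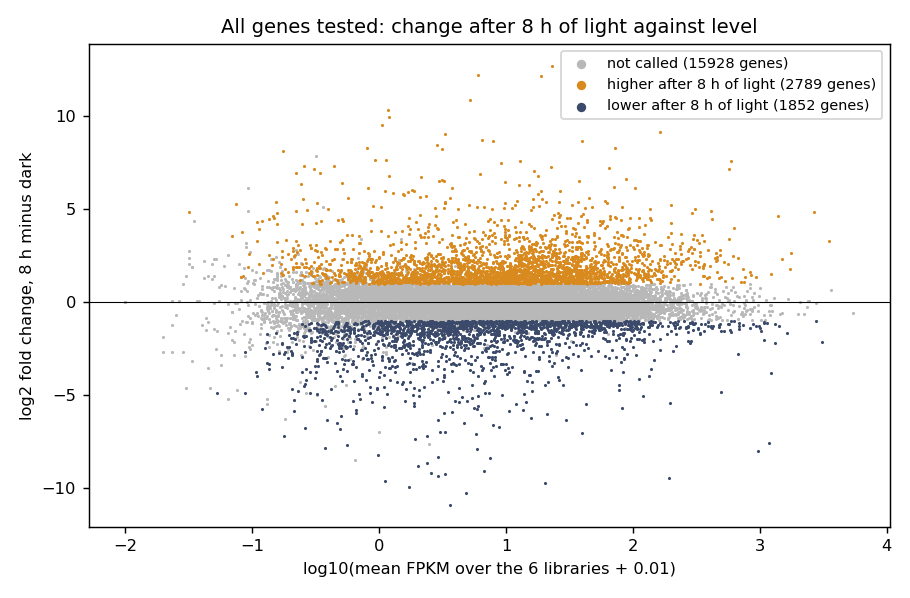
Each point is 1 of the 20569 genes tested, with the log10 of its mean FPKM over the 6 libraries on the horizontal axis and its log2 fold change (8 h minus dark) on the vertical axis. The 2789 higher genes (orange) reach the highest levels of the plot, and the 1852 lower genes (blue) spread over the same range of levels.

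The genes of the photosynthetic light reactions rose almost as a block, while a few members did not pass the test. Of the nuclear genes of the photosystem II core, 12 of 13 rose and none fell, with a median log2 fold change of 2.62. PSBS (AT1G44575, chr1:16870221-16873427), which sets off the harmless dissipation of excess light, gained the most of them. Its level was 27.5, 25.8 and 28.1 FPKM in the dark libraries and 925, 613 and 829 after 8 h (log2 fold change 4.91 ± 0.3, SE, adjusted p = 6.1e-09). PSBR, a small subunit of the oxygen-evolving side and the most abundant of the list, went from 488, 443 and 601 to 2808, 2248 and 2384 FPKM. The member that did not pass was PSBP2, at 0.71, 0.9 and 1.29 FPKM in the dark and 0.89, 0.53 and 0.7 at 8 h.

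In the antenna of photosystem II (LHCII), 12 of 15 genes rose, with a median log2 fold change of 2.54. The LHCB1 genes encode the main trimeric light-harvesting protein and share reads, so their single values are uncertain. Summed over the 5 genes, their level was 1670, 488 and 1976 FPKM in the dark libraries and 6836, 5136 and 6976 FPKM at 8 h. Dark replicate 2 was the low library there, as for the whole list (1204 FPKM against 2741 and 3211), and no dark library reached a light library. LHCB4.2, a minor antenna protein (CP29), did not pass, with 266, 189 and 283 FPKM in the dark and 313, 216 and 313 at 8 h, and the 2 groups overlapped. All 6 genes of the photosystem I antenna rose (median 2.56). LHCA1 led them at a log2 fold change of 3.6 ± 0.33 (adjusted p = 4e-07), and LHCA2 was lowest at 1.31.

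In the photosystem I core, 11 of 12 genes rose (median 2.25), from PSAD2 at 1.4 to PSAK at 3.68. PSAE2 missed the fold limit at 0.94 (1.05 without 8 h replicate 2). All 8 genes of the cytochrome b6f complex and the soluble electron carriers rose, with a median of 2.41. FNR2, a ferredoxin-NADP reductase at the end of the electron chain, went from 9.41, 7.37 and 7.95 FPKM to 199.9, 133 and 207 FPKM, the widest step of this list (4.5 ± 0.27, adjusted p = 5.3e-09). FNR1 was at 37.3, 34.1 and 38.3 FPKM in the dark and 330, 224 and 339 at 8 h. Every light library was above every dark library for both reductases, as in 26.1% of all genes tested. Of the 4 nuclear genes of the chloroplast ATP synthase, 3 rose. ATPC2, which encodes another gamma subunit, did not pass, with 5.6, 5.11 and 10.02 FPKM in the dark and 5.38, 5.64 and 4.97 at 8 h, while ATPC1, the gamma subunit gene of leaves, rose by 2.19.

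The chloroplast NADH dehydrogenase-like (NDH) complex, which carries electrons around photosystem I, showed the highest median of the photosynthetic lists, 3.99. Of its genes, 16 of 17 rose and none fell. NDHU (AT5G21430, chr5:7222179-7223639) was at 1.2, 0.82 and 0.53 FPKM in the dark and 60.8, 42.8 and 52.6 at 8 h (6.0 ± 0.33, adjusted p = 1.9e-09). PNSB3 and PNSB1, subunits of subcomplex B, rose by 5.54 and 5.05. NDHS was the exception, with 90.5, 81.01 and 59.8 FPKM in the dark and 88.5, 81.6 and 87.5 at 8 h, the highest dark level of the list. PNSB3, PNSB1 and NDHS overlap other listed loci or had mostly fractional counts, which makes their single values uncertain.

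Genes of carbon fixation shifted far in abundance. The 22 Calvin cycle genes summed to 2514, 2523 and 2674 FPKM in the dark libraries and to 25823, 17285 and 25342 FPKM at 8 h, and 19 of them rose while none fell (median 3.16). The 4 small subunit genes of Rubisco, the carbon-fixing enzyme, share reads, so their sum is given. It was 1070, 1085 and 1084 FPKM in the dark and 15391, 9621 and 15547 FPKM at 8 h. RBCS1A (AT1G67090, chr1:25048158-25049667) was the most abundant of all the genes that rose, with 686, 699.6 and 598 FPKM in the dark and 7259, 4422 and 7237 at 8 h (3.3 ± 0.29, adjusted p = 3.2e-07). RBCS1B, close to silent in the dark at 11.3, 3.99 and 9.09 FPKM, reached 1288, 762 and 1325. Rubisco activase (RCA, AT2G39730, chr2:16570746-16573692), which keeps the enzyme open for its substrate, went from 108, 108 and 118 to 3004, 2236 and 2811 FPKM (4.64 ± 0.21, adjusted p = 3.1e-10). The dark libraries were close to each other for these genes except RBCS1B, and 8 h replicate 2 was the lowest light library in each of them.

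Other enzymes of the cycle also rose. SBPASE, the sedoheptulose bisphosphatase, rose by 4.54, and GAPB, a subunit of the photosynthetic glyceraldehyde phosphate dehydrogenase, by 4.78. TIM, the plastid triose phosphate isomerase, had 0.63 and missed the fold limit. The CP12 proteins, which lock phosphoribulokinase and that dehydrogenase together in the dark, split: CP12-2 went from 27.7, 37.1 and 29.2 to 406, 247 and 376 FPKM, CP12-1 was at 504, 547 and 618 and 612, 521 and 534, and CP12-3 at 23.1, 19.8 and 22.1 and 17.9, 16.99 and 13.2. CP12-2 alone passed the test, and the values of CP12-1 overlapped between the groups.

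Photorespiration salvages the product of Rubisco's oxygenase reaction, and 16 of its 17 genes rose (median 2.85). SHM1 (AT4G37930, chr4:17831731-17835017), the mitochondrial serine hydroxymethyltransferase, went from 20.9, 18.1 and 17.4 to 659.9, 505 and 632 FPKM (5.04 ± 0.24, adjusted p = 3.3e-10). GGT1, a peroxisomal glutamate-glyoxylate aminotransferase, was the most abundant member at 8 h with 1196, 866 and 1046 FPKM against 87.8, 87.7 and 130.1 in the dark. The peroxisomal aminotransferase AGT did not reach the fold limit (0.58), and it was already at 662, 734 and 529 FPKM in the dark. The catalases moved in opposite directions. CAT2, the catalase of photorespiring leaves, rose from 469, 463 and 537 to 1080, 929 and 1018 FPKM (1.1 ± 0.13). CAT3 (AT1G20620, chr1:7142972-7146540) fell from 5744, 5529 and 3815 FPKM to 1034, 1348 and 1006 (-2.12 ± 0.25, adjusted p = 5.6e-06), and it had the highest dark level of all the nuclear genes that fell. Most of its counts were fractional, so reads were shared with other genes.

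**Figure D2:**
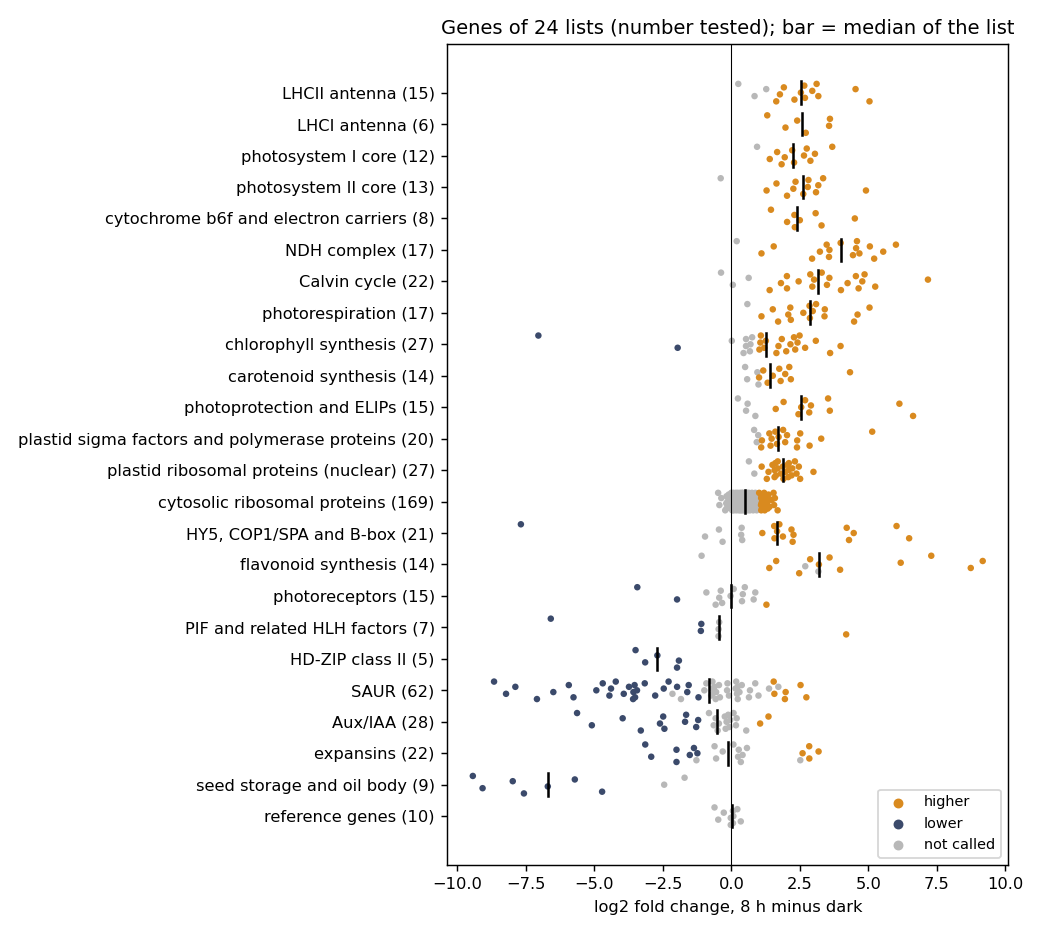
Each point is the log2 fold change (8 h minus dark, horizontal axis) of 1 tested gene in 24 lists; orange genes were called higher, blue genes lower, grey genes were not called, and a black bar marks each list's median. Lists of photosynthesis lie to the right of 0 (medians from 2.25 to 3.99 in the photosystems, their antennae, the b6f complex, the NDH complex, the Calvin cycle and photorespiration), HD-ZIP class II (-2.70) and seed storage genes (-6.70) lie to the left, and the reference genes centre on 0.02.

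RNA of most chlorophyll synthesis genes rose, while genes of the light-dependent step moved in both directions. Of 27 genes, 18 rose and 2 fell, with a median of 1.26. Those that rose include HEMA1, the glutamyl-tRNA reductase that commits carbon to the pathway (41.7, 30.6 and 48.3 FPKM in the dark, 163, 127 and 172 at 8 h). Among them were also CHLH, the large subunit of magnesium chelatase (3.08 ± 0.26), and its activator GUN4 (3.6 ± 0.47). The highest fold change was that of DVR, the divinyl reductase, which went from 1.82, 2.36 and 1.92 to 36.2, 18.9 and 39.1 FPKM (3.98 ± 0.49, adjusted p = 8.6e-06). HEMA2, the second reductase gene, was at 16, 14.03 and 16.3 FPKM in the dark and 15.7, 14.3 and 15.2 at 8 h and did not pass.

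The genes that fell both encode protochlorophyllide oxidoreductases, the enzymes that need light for catalysis. PORA (AT5G54190, chr5:21990864-21992814) went from 78.1, 76.4 and 82.1 FPKM to 0.58, 0.45 and 0.7 FPKM (-7.04 ± 0.68, adjusted p = 7.1e-07), a loss seen in each light library. PORB went from 141, 132 and 151 to 43.2, 16.97 and 46.4 FPKM (-1.96 ± 0.33), and its counts are shared with overlapping sequence and mostly fractional. The third gene of the family, PORC, rose from 6.99, 5.69 and 6.36 to 39.8, 21.7 and 47.2 FPKM (2.49 ± 0.35). At 8 h the summed level of the family thus rested on PORB and PORC, while PORA was near 0.

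The 300 bases upstream of the annotated start of PORA are shown because it fell the most in this pathway. They come from the RefSeq genome TAIR10.1, whose gene coordinates matched those of the files, on chr5:21992815-21993114, minus strand, 5′ to 3′. Capitals mark an evening element (AAATATCT), a motif known from promoters of clock-controlled genes, which starts 179 bases upstream. No G-box (CACGTG), the core bound by HY5 and the PIFs, lies in this window.
PORA: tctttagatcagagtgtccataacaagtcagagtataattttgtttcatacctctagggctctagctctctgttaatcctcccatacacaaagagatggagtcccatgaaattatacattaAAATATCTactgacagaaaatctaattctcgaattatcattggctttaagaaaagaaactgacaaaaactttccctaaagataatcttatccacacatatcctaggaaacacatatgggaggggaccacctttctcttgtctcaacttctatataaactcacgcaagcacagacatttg
The start used is the outermost annotated start, so the window may miss sequence next to a start used in these seedlings, and a match says nothing of binding.

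Carotenoid genes rose in 10 of 14 cases and none fell (median 1.42). LUT5, a hydroxylase of the lutein branch, led them at 4.33 ± 0.3, with counts shared with an overlapping locus. PSY, the phytoene synthase that opens the pathway, went from 28.4, 27.3 and 17.9 to 125, 85.02 and 119 FPKM (2.17 ± 0.26). The plastid isoprenoid (MEP) pathway, which feeds carotenoids and the chlorophyll tail, had 7 of 8 genes higher (median 1.26). HDR, its last enzyme, did not pass, with 300.5, 388 and 272 FPKM in the dark and 334, 272 and 304 at 8 h. Among genes for photoprotection, 11 of 15 rose and none fell (median 2.55). The early light-induced proteins, relatives of the antenna that appear when pigment is built under light, went furthest: ELIP1 (AT3G22840, chr3:8084405-8085669) went from 2.61, 1.57 and 1.21 to 186, 163 and 169.9 FPKM (6.63 ± 0.58, adjusted p = 2.8e-07). ELIP2 went from 2.84, 5.4 and 0.65 to 216, 219.6 and 182 FPKM. Neither gene had a dark library near its light libraries. PGRL1A, of cyclic electron flow, rose by 3.53, while its copy PGRL1B had 0.53 and missed the fold limit.

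Genes for the machinery that expresses the plastid genome rose as well. Of 20 nuclear genes for plastid sigma factors and polymerase-associated proteins, 17 rose and none fell (median 1.69). SIG5 (AT5G24120, chr5:8157151-8160343), the sigma factor known to answer blue light, went from 5.03, 5.1 and 3.89 to 158, 193 and 129 FPKM (5.14 ± 0.23, adjusted p = 3e-10). The other sigma factors made smaller steps, from 0.92 for SIG4, which missed the fold limit (1.09 without 8 h replicate 2), to 1.96 for SIG6. FLN1 and FLN2, kinase-like proteins of the polymerase complex, rose by 2.85 and 3.28, and dark replicate 3 was above the other dark libraries in both (2.82, 2.35 and 12.1 FPKM for FLN1). Without it their log2 fold changes were 3.90 and 4.18. Nuclear genes of plastid ribosomal proteins rose in 25 of 27 cases (median 1.87), and their sum went from 1344, 1467 and 1893 FPKM to 5611, 3806 and 5630. RPL12-A, the most abundant, was at 79.1, 86.4 and 103 FPKM in the dark and 542, 334 and 468 at 8 h.

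Import into plastids changed less. Of 18 genes for the TOC and TIC translocons of the plastid envelope, 9 rose and none fell (median 0.84). TIC62 (2.72) and TIC56 (2.42) of the inner membrane led them. Receptors of the outer membrane did not pass: TOC159 was at 88.04, 78.6 and 83.96 FPKM in the dark and 91.3, 73.7 and 89.7 at 8 h, and TOC34 had -0.55. Of the plastid genome itself, 60 genes were tested and 14 rose, with PSBC (2.77) and PSBD (2.26), overlapping genes of photosystem II, as the highest. None fell, or 1 without dark replicate 3. The 14 made up 23.3% of the plastid genes tested. Of all genes tested, 13.6% rose and 22.6% changed in either direction. PolyA selection leaves out most plastid RNA: PSBC was at 1.98, 1.04 and 1.16 FPKM in the dark and 11.3, 5.95 and 10.2 at 8 h, so these values describe only the RNA that entered the libraries.

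Of 21 light signalling genes, namely HY5 and its homologue, the COP1/SPA complex and the B-box proteins, 14 rose and 1 fell (median 1.67), or 2 fell without dark replicate 3. HYH, the close homologue of HY5, went from 4.9, 6.4 and 6.18 to 122, 126 and 127 FPKM (4.46 ± 0.19, adjusted p = 1.6e-10). HY5 itself made a smaller step, from 27.4, 32.5 and 19.3 to 67.8, 85.97 and 74.5 FPKM (1.56 ± 0.18). COP1, the ubiquitin ligase that removes HY5 in darkness, rose too, from 12.3, 12.2 and 11.4 to 35.7, 34.9 and 32.3 FPKM (1.57 ± 0.11). BBX32 (AT3G21150, chr3:7412445-7413727), a B-box protein that overlaps another listed locus, was at 0.1, 0.1 and 0.45 FPKM in the dark and 20.8, 16.2 and 21.1 at 8 h. BBX30 was at or under 3 counts in each dark library and at least 16.5-fold higher at 8 h. BBX23 was the member that fell, from 0.73, 1.25 and 1.32 FPKM to 0 in each light library, at least 8.26-fold, a call that DESeq2 did not make (adjusted p = 0.25). BBX21, the most abundant B-box gene in the dark (225, 225 and 190.1 FPKM), came to 98.6, 131 and 88.03 at 8 h and missed the fold limit at -0.96, which it passed when scaled by library size alone (-1.01), in limma (-1.02), and without dark replicate 3 (-1.08) or 8 h replicate 2 (-1.16).

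Of 15 genes in the photoreceptor list, which also holds FHL, not itself a photoreceptor, 1 rose and 2 fell (median -0.03). That share is near the 22.6% of all genes tested that changed. PHYA (AT1G09570, chr1:3095160-3100819), the light-labile phytochrome that opens de-etiolation, fell from 280.4, 272 and 229 to 62.05, 65.1 and 61.8 FPKM (-1.98 ± 0.13, adjusted p = 1.4e-08). FHL, which with FHY1 carries phytochrome A into the nucleus, fell from 9.47, 15.2 and 10.8 to 0.63, 1.26 and 0.98 FPKM (-3.43 ± 0.36). PHOT2, the phototropin of strong blue light, rose by 1.28. PHYB, the phytochrome of light-grown plants, was at 27.4, 26.3 and 26.2 FPKM in the dark and 36.2, 31.3 and 35.9 at 8 h, a difference of 0.42 that did not pass. The PIF list of 7 genes had 1 member higher and 3 lower. PIL1, a PIF-related factor known from shade responses, fell from 15.2, 22.9 and 8.92 to 0.2, 0.13 and 0.15 FPKM (-6.59 ± 0.58, adjusted p = 2.7e-07). PIF3 (-1.11) and PIF4 (-1.1) fell by less, and PIF4 was at -0.93 without dark replicate 3, under the fold limit. PIF7 rose from 0.52, 0.3 and 0.74 to 9.7, 8.62 and 8.81 FPKM (4.19 ± 0.21), with mostly fractional counts. PIF1, whose protein holds back chlorophyll synthesis in the dark, was at 31.5, 24.97 and 45.7 and 23.7, 17.7 and 29.5 FPKM, and its groups overlapped.

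Of the 4 GLK and GATA factors that promote chloroplast formation, GNL (2.97) and GNC (1.32) rose. GLK1 fell from 20.98, 21.97 and 17.6 to 6.41, 2.06 and 5.89 FPKM (-2.06 ± 0.37, adjusted p = 0.00029), and GLK2 was at 56.9, 44.1 and 50.5 and 57.2, 37.8 and 59.6 FPKM. The direction of GLK1 was thus opposite to that of the photosynthesis genes. Among 18 clock genes, 4 rose and 1 fell (median 0.41), so that 27.8% were called, near the 22.6% of all genes tested. ELF4, of the evening complex, went from 26.5, 33.4 and 7.29 to 154, 174 and 145 FPKM (2.83 ± 0.39). Dark replicate 3 was far below the other dark libraries there. LNK2 was the gene that fell (-1.05), a call that was lost without dark replicate 3 (-0.60) and without 8 h replicate 3 (-0.98). CCA1, a morning factor, was at 42.1, 39.99 and 50.9 FPKM in the dark and 27.6, 22.98 and 23.5 at 8 h and did not reach the fold limit.

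Flavonoids absorb ultraviolet light, and HY5 and the factor MYB12 are known to switch on the early genes of their synthesis. Of 14 tested genes, 11 rose and none fell, with a median of 3.18, or 2.25 with genes at or under the floor of 3 counts set at their bound, and 4.38 (without bounds) without dark replicate 3. CHS (AT5G13930, chr5:4488476-4490264), the chalcone synthase that makes the first committed step, went from 0.7, 0.65 and 0.39 FPKM in the dark to 269, 424 and 285 at 8 h (9.17 ± 0.76, adjusted p = 1.6e-07). F3H and FLS1, which lead on to flavonols, went from 2.01, 2.18 and 1.74 to 119.5, 170.3 and 130.3 and from 0.3, 0.44 and 0.17 to 36.95, 54.9 and 43.8 FPKM. In all of them 8 h replicate 2 was the highest light library, the reverse of its place for photosynthesis genes. MYB12 (AT2G47460, chr2:19476326-19479597) was at or under 3 counts in each dark library and at least 154-fold higher at 8 h, with 9.57, 16.6 and 12.8 FPKM. Of the anthocyanin branch, LDOX was at 0, 0 and 0.44 FPKM at 8 h and DFR at 0.06, 0 and 0.26. PAP1, an activator of that branch, was at 1.22, 0.94 and 0.44 FPKM in the dark and 0.44, 0 and 0.77 at 8 h, after means of 13.9 at 2 h and 3.75 at 4 h (8 h against 4 h -3.16, adjusted p = 0.032 in edgeR).

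Promoters of the light-induced CHS, MYB12 and ELIP1 each hold a G-box within 300 bases of the annotated start, and they were picked after the motif search. CHS and ELIP1 had the highest fold changes of their lists, and MYB12 is the factor known to act on CHS. Sequences are from RefSeq TAIR10.1 and run 5′ to 3′ on the gene's strand: chr5:4488176-4488475 (plus) for CHS, chr2:19476026-19476325 (plus) for MYB12 and chr3:8085670-8085969 (minus) for ELIP1. Capitals mark the G-box CACGTG and, in CHS, also the evening element AAATATCT.
CHS: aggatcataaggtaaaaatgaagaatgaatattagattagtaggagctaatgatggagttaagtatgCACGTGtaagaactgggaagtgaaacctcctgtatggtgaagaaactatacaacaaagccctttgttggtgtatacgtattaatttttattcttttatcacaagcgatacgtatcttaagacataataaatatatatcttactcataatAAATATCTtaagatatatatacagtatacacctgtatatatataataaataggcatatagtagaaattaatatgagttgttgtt
MYB12: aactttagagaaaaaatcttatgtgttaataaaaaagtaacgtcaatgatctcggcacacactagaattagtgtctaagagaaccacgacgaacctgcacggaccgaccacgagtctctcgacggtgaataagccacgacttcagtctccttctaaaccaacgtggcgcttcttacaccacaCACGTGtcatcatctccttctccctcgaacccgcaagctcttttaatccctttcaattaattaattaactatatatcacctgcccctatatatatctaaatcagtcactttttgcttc
ELIP1: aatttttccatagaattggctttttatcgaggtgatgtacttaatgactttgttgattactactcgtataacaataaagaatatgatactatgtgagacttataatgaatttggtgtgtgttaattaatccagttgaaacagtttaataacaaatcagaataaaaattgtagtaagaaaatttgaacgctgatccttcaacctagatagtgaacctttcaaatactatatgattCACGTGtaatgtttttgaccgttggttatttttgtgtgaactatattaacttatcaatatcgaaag
The G-box starts 233 bases upstream in CHS, 118 in MYB12 and 66 in ELIP1. A G-box was found, on either strand (the motif reads the same on both), in 8.19% of the 20471 promoters of tested genes. The share was 8.36% among genes that rose, 11.1% among those that rose by at least 3 on the log2 scale and 8.70% among genes that fell.

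Families tied to elongation growth fell in part. All 5 genes of HD-ZIP class II, factors known from shade and elongation growth, fell (median -2.70), and each light library lay below each dark library in all 5, as in 23.3% of all genes tested. HB-2 (AT4G16780, chr4:9449114-9450905) went from 45.7, 60.4 and 63.8 to 4.29, 5.26 and 4.96 FPKM (-3.5 ± 0.19, adjusted p = 1.7e-09). HAT2 went from 31.2, 29.3 and 24.7 to 4.17, 3.4 and 5.2 FPKM (-2.7 ± 0.21). SAUR genes, small auxin-induced genes whose proteins promote cell expansion, fell in 27 of 62 tested cases and rose in 6 (median -0.83). Members of a tandem cluster lost nearly all of their RNA. SAUR22 (AT5G18050, chr5:5974341-5975087) was at 12.1, 16.9 and 6.4 FPKM in the dark and 0.12, 0 and 0 at 8 h, at least 62.1-fold lower. SAUR24, at 12.8, 17.2 and 4.57 and 0.37, 0.07 and 0.17 FPKM, behaved alike, with counts shared between near copies. SAUR6 and SAUR14 rose by 2.52 and 1.95. SAUR32 was the most abundant member and did not pass, with 109, 108 and 89.2 FPKM in the dark and 124, 146 and 116 at 8 h, so the list's summed level differed little (542, 584 and 441 FPKM against 416, 436 and 415).

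Aux/IAA genes encode repressors that auxin itself induces, and 11 of 28 fell while 2 rose (median -0.54), or 1 rose without dark replicate 3. IAA19 (AT3G15540, chr3:5264001-5265695), known from elongating hypocotyls, fell from 18.5, 21.2 and 5.79 to 0.75, 1.02 and 1.1 FPKM (-3.97 ± 0.51, adjusted p = 1.3e-05). IAA29 fell from 8.39, 12.97 and 5.02 to 0.34, 0.21 and 0.21 FPKM. IAA13, the most abundant of those that fell, went from 77.7, 77.5 and 71.8 to 23.9, 23.6 and 22.4 FPKM (-1.65 ± 0.14). IAA14 (1.05) and IAA28 (1.35) were the members that rose. The call of IAA14 was lost without dark replicate 3 (0.94) or 8 h replicate 2 (0.86).

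Cell wall families split. Of 22 expansins, which loosen walls, 7 fell and 4 rose. EXPA8 went from 119, 127 and 43.8 to 27.8, 11.5 and 32.6 FPKM and EXPA11 from 38.98, 45.9 and 12.2 to 4.59, 3.13 and 5.03, while EXPA1 (AT1G69530, chr1:26141726-26143538) went from 26.1, 29.2 and 20.9 to 209, 65.03 and 257 (2.84 ± 0.4, adjusted p = 3.6e-05). In EXPA1, as in EXPA10 (66.5, 20.7 and 127.5 FPKM at 8 h against 8, 5.47 and 11.1 in the dark), 8 h replicate 2 lay nearest the dark values. XTH enzymes, which cut and rejoin xyloglucan, rose in 6 and fell in 5 of 25 cases (44.0% called, and 3 fell without dark replicate 3). XTH15 (AT4G14130, chr4:8137020-8138392) lost the most, from 245, 262 and 645 FPKM to 8.57, 7.23 and 9.4 (-5.43 ± 0.41, adjusted p = 5.8e-08), and overlaps another listed locus. XTH6 gained the most, from 3.82, 0.64 and 9.46 to 56.9, 88.8 and 49.7 FPKM (3.93 ± 0.64, or 4.90 without dark replicate 3). GASA4 (AT5G15230, chr5:4944816-4946299), a gibberellin-responsive peptide gene, was among the most abundant genes that fell, from 2542, 3866 and 472 FPKM to 226, 57.5 and 212 (-3.82 ± 0.65, adjusted p = 0.0002). Its 3 dark values differed widely, yet all were above the light values, as in 23.3% of all genes tested. Without dark replicate 2 the fold change was -3.16.

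Hormone genes changed in single steps. In the gibberellin list of 17, 2 rose and 4 fell (35.3% called, against 22.6% of all genes tested). GA3OX1, which makes active gibberellin, fell from 5.24, 9.46 and 1.6 to 0.87, 0.41 and 0.85 FPKM (-2.94 ± 0.67, or -2.21 without dark replicate 2), while its copy GA3OX2 rose from 0.12, 0 and 0.37 to 5.28, 4.01 and 10.03 FPKM (5.33 ± 0.64, adjusted p = 6.9e-06, or 6.62 without dark replicate 3). Of the DELLA repressors, GAI (-1.57) and RGL1 (-1.84) fell, and RGA, the most abundant, was at 54.8, 62.6 and 49.7 FPKM in the dark and 49.4, 60.96 and 53.99 at 8 h. In brassinosteroid synthesis and signalling, 3 of 13 fell and 1 rose (30.8% called). The cytochrome P450 genes CPD (from 341, 361 and 302 to 103, 98.7 and 92.2 FPKM, -1.72 ± 0.16) and BR6OX1 (-4.69, or -5.45 without 8 h replicate 1) fell. BR6OX2, which makes brassinolide, rose by 1.01, just past the fold limit, and had 0.87 without dark replicate 3 and 0.88 without 8 h replicate 2. Without dark replicate 3, 5 genes of this list fell and none rose. In the ethylene and hook list, 4 of 18 fell and none rose (22.2% called, near the share of all genes tested). HLS1, needed for the apical hook, fell from 11.7, 14.7 and 17.3 to 3.56, 2.25 and 4.8 FPKM (-1.97 ± 0.39, adjusted p = 0.00068). ACS5 and ACS8, which make the ethylene precursor, were at 0 in each light library and at least 30.3-fold and 9.43-fold lower there. EIN3, the central transcription factor of the pathway, fell from 306, 316 and 293 to 140.2, 164 and 130.3 FPKM, just past the fold limit (-1.03), and had -0.96 without dark replicate 2 and -0.94 without 8 h replicate 3.

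Seed reserves faded, from dark levels that differed widely. Of 9 tested seed storage and oil body genes, 7 fell (median -6.70), or 5 without dark replicate 3 (median -3.07). CRA1 (AT5G44120, chr5:17756238-17758336), a cruciferin, was at 672, 269.9 and 6148 FPKM in the dark and 6.16, 6.86 and 21.2 at 8 h (-7.57 ± 1.23, adjusted p = 0.00012). Its log2 fold change was -5.36 without dark replicate 3 and -8.33 without 8 h replicate 3. CRU3 was at 921, 345 and 4500 and 5.06, 1.09 and 15.1 FPKM. Even the lowest dark library was far above every light library for both. OLEO1, an oil body protein, went from 29.3, 11.3 and 446 to 1.88, 3.12 and 3.35 FPKM (-5.71 ± 1.23, or -2.85 without dark replicate 3). OLEO2 did not pass, at 38.9, 24.4 and 234 FPKM in the dark and 16.2, 52.4 and 13.8 at 8 h, though it was called lower in DESeq2 (-1.72) and without dark replicate 1 (-2.08), dark replicate 2 (-2.17) or 8 h replicate 2 (-2.61).

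The promoter of OLEO1 is shown as a counterpart to the light-induced ones, since it holds a pair of G-boxes and the gene fell. It lies on chr4:12900130-12900429 of TAIR10.1 (plus strand), with the G-boxes in capitals starting 95 and 61 bases upstream.
OLEO1: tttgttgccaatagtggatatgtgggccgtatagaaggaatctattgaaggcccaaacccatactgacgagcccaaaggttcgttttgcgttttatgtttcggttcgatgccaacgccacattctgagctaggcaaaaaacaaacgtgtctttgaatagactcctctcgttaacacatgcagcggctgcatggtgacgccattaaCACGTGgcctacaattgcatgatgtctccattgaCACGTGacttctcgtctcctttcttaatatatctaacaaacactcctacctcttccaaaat
A G-box was found in 5 of the 9 tested seed storage and oil body promoters and in 4 of the 14 flavonoid promoters.

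Enzymes that turn seed oil into sugar changed little: of 18 genes of the glyoxylate cycle and beta-oxidation, 1 rose and 1 fell. That is 11.1%, against 22.6% of all genes tested. PMDH2, a peroxisomal malate dehydrogenase that photorespiration also uses, rose from 52.9, 67.5 and 64.8 to 317, 259 and 284 FPKM (2.25 ± 0.18). PCK1 (AT4G37870, chr4:17802690-17806705), which opens the way from oxaloacetate to sugar, fell from 450.4, 483 and 485 to 163, 145 and 211 FPKM (-1.41 ± 0.26, adjusted p = 0.00034). ICL, the isocitrate lyase, was at 640.3, 814 and 1379 FPKM in the dark and 527, 546 and 659 at 8 h and did not pass. Of 10 genes known to respond to darkness or sugar starvation, 2 fell and 1 rose. BCAT-2 (-1.23) of branched-chain amino acid breakdown and DIN1 (-1.11) fell, and DIN9 rose by 1.03. The call of DIN1 was lost without dark replicate 2 (-0.86) or 8 h replicate 3 (-0.88). That of DIN9 was lost without dark replicate 1 (0.94), dark replicate 3 (0.88) or 8 h replicate 2 (0.81). DIN10, at 868, 1030 and 761 FPKM in the dark and 947, 1451 and 834 at 8 h, did not pass. In nitrogen assimilation, 4 of 9 genes rose and 1 fell, with ASN2, an asparagine synthetase, going from 5.92, 2.49 and 3.75 to 64.9, 31.8 and 67.7 FPKM (3.83 ± 0.39).

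**Figure D3:**
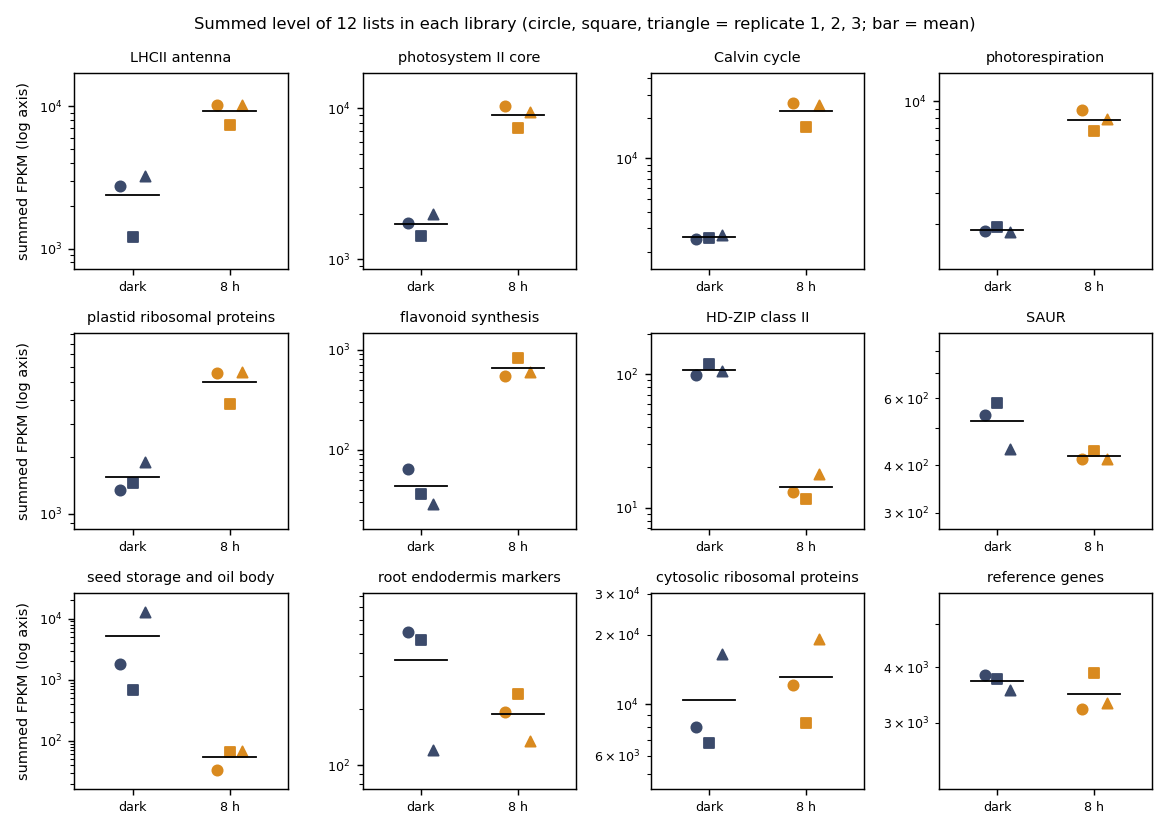
Summed FPKM (vertical log axis) of 12 gene lists in each dark library (blue) and each 8 h library (orange); circle, square and triangle are replicates 1, 2 and 3 and bars are means. The groups are apart for the photosynthesis, flavonoid and HD-ZIP class II lists, while dark replicate 3 (triangle) stands away from the other dark libraries for seed storage (12880 FPKM against 1785 and 676), endodermis and cytosolic ribosomal genes.

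Housekeeping families gave a background. None of 10 reference genes met the rule for a change, with a median of 0.02. By adjusted p alone, without the fold limit, 3 of the 10 were lower and 1 was higher. By that measure 9927 of all 20569 genes tested had changed. ACT2, an actin often used for scaling, was at 926, 898 and 955 FPKM in the dark and 599.9, 729 and 591 at 8 h, a log2 difference of -0.48 that lay under the fold limit. Cytosolic ribosomal protein genes rose in 26 of 169 cases with no member lower (median 0.48), a share near the 13.6% of all genes tested. Without dark replicate 3, whose summed level of these genes was 16564 FPKM, 71 of them rose and the median was 0.92. The light libraries differed as much, with 12147, 8299 and 19118 FPKM, so that list moved between libraries of a group as well as between the groups. Of 43 histone genes, 2 rose and 3 fell (11.6% called, against 22.6% of all genes tested). HIS1-3, a linker histone gene known to respond to drought, fell from 520.1, 587 and 724 to 237, 229 and 212 FPKM (-1.37 ± 0.33). WRKY factors, many of them tied to defence, fell in 8 of 58 cases, against 9.0% of all genes tested, the most in WRKY63 (-2.82). None rose, or 1 without dark replicate 3. Aquaporins fell in 5 of 29 cases, among them TIP2;3 (-1.6), and PIP1;4 rose (1.27), so that 20.7% were called.

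The endodermis genes CASP1 to CASP5, which build the diffusion barrier of the root, had 1 of 5 members lower, CASP5 (-1.42 ± 0.41, groups overlapping), with no member higher. The call was lost without 8 h replicate 3 (-1.22) and with only the compared groups in the edgeR fit (-1.44, adjusted p = 0.063). Without dark replicate 3 all 5 were lower. The summed level was 514, 464 and 121 FPKM in the dark and 192, 240 and 135 FPKM at 8 h. Of the 7 shoot genes tested, 1 rose and 1 fell (28.6% called). With all libraries kept, the share called in the endodermis list and in the shoot list was near the 22.6% of all genes tested. SPCH, which starts the stomatal lineage, rose by 1.45 and the meristem gene STM fell (-1.03). The call of SPCH was lost without 8 h replicate 1 (1.01, adjusted p = 0.059 in edgeR). That of STM was lost without dark replicate 3 (-0.85) or 8 h replicate 1 (-0.99).

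The widest single changes were a mixed set, and several of them are uncertain as measurements. Of the 20 genes with the highest and lowest log2 fold changes among those with a mean of at least 50 counts in the higher group and no overlap between groups, 13 had 0 counts in every library of the lower group. There, 9 of the 20 overlap another listed locus, and 5 have at least 90% of their span inside it. DIR1, a lipid transfer protein of systemic immunity, had 0 counts in each dark library and 52.99, 35.4 and 48.5 FPKM at 8 h, but lies wholly inside AT5G48480 on the other strand, whose counts did not change. FdC1, a ferredoxin-like gene, lies wholly inside AT4G14900. AT4G31875 went from 9.11, 7.17 and 12.5 FPKM to 0 in each light library, and it lies inside GPX7, which rose from 12, 4 and 14 counts to 1294, 1287 and 1118. Whether the counting used strand is not given in the sources used here, so reads of such pairs cannot be told apart. The same limit holds, for the reads of the shared bases only, for other genes named here that overlap a listed locus: CHS, RCA, PSBR, PSBP2, PSAD2, PSAE2, LHCB4.2, FNR1, ATPC2, NDHL, PNSL1, PORC, GUN4, PSY, SIG4, RPL12-A, TOC159, TOC34, CAT2, PHOT2, PIF1, PIF7, LNK2, SAUR6, IAA13, CPD, OLEO1, OLEO2, BCAT-2, DIN3, DIN10, CASP1, CASP5, HSP101 and TPX2. The overlap was small for CHS (2 of 1789 bases) and RCA (3 of 2947 bases). At 8 h the partner of CHS had 2, 6 and 2 counts, against 10408, 16354 and 9766 for CHS. The partner of RCA had 92, 90 and 93, against 133655, 99423 and 110861 for RCA. Mostly fractional counts, a sign of reads divided between genes, were also found for GGT1, ACT2, EIN3, IAA14, PIP1;4 and XTH17.

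Other wide changes were in genes that overlap no listed locus. AT2G15020 (AT2G15020, chr2:6491425-6493512), of unknown function, had 0 counts in each dark library and 11.1, 15.01 and 10.2 FPKM at 8 h, at least 190-fold. AT2G22590, a glycosyltransferase, was at or under 3 counts in each dark library and at least 191-fold higher at 8 h (15, 18.4 and 13.5 FPKM). CIPK20, a kinase of calcium signalling, was at least 30.1-fold higher. Among those that fell, the F-box gene AT1G20790 went from 3.67, 5.67 and 0.91 FPKM to 0 in each light library, at least 38.4-fold. CRU2, a cruciferin, was at least 157-fold lower, a bound carried by dark replicate 3 (0.95, 0.6 and 38.3 FPKM in the dark). In all, 71 genes that rose had at most 3 counts in each dark library, and 109 genes that fell had at most 3 in each light library. Of the abundant genes that fell, UBQ3, a polyubiquitin, went from 4027, 4145 and 3036 to 1616, 2232 and 1565 FPKM (-1.01 ± 0.24), and the thioredoxin-dependent peroxidase gene TPX2 (AT1G65970) from 1970, 2998 and 2479 to 652, 998 and 656 (-1.65 ± 0.23). Both had only fractional counts, and the call of UBQ3 was lost without dark replicate 1 (-0.96), dark replicate 2 (-0.88), 8 h replicate 1 (-0.93) or 8 h replicate 3 (-0.89).

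To see which of these levels were still moving, the 8 h libraries were set against the 4 h libraries, a contrast in which the dark libraries entered only the scaling, the filter and the estimate of the spread. In this comparison 734 genes changed (3.57%), 391 higher (1.9%) and 343 lower (1.67%). Scaled by library size alone, the split turned to 294 higher and 428 lower. The NDH complex and the plastid ribosome were still rising: 9 of 17 NDH genes and 15 of 27 plastid ribosomal genes were higher than at 4 h. PNSL1, of the luminal NDH subcomplex, had a mean of 9.64 FPKM at 4 h and 52.8, 33.2 and 52.1 at 8 h (log2 fold change 2.32, adjusted p = 0.0059). No gene of LHCII, LHCI or either photosystem core was called against 4 h in either direction, though their median log2 fold changes were positive. They were 0.17 for LHCII, 0.25 for LHCI, 0.4 for the photosystem I core and 0.57 for the photosystem II core. Those of the NDH complex and the plastid ribosome were 1.11 and 1.02. The photosystem II core summed to 5221 to 6596 FPKM at 4 h and 7374 to 10284 at 8 h, without overlap. The sums of the LHCII, LHCI and photosystem I core lists overlapped between 4 and 8 h. RBCS1A had a mean of 3480 FPKM at 4 h, 0.91 below 8 h on the log2 scale, which missed the fold limit.

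Some transcripts were lower at 8 h than at 4 h and lay near or below the dark level at 8 h. Of 26 heat shock protein genes, 12 were lower than at 4 h and none higher, while 5 were higher than in the dark. HSP70 had a mean of 663 FPKM at 4 h, 136, 149.8 and 132 at 8 h and 109, 109 and 93.6 in the dark (8 h against 4 h -2.18, adjusted p = 0.00038). HSP101, a disaggregase, had 69.7 FPKM at 4 h, 10.7, 10.3 and 10.7 at 8 h and 13.2, 9.52 and 11.9 in the dark. Neither differed from the dark at 8 h beyond the threshold. XTH17 had a mean of 27.9 FPKM at 4 h and 1.24, 1.24 and 1.4 at 8 h (-4.36, adjusted p = 0.00097), below its dark values of 25.5, 24.99 and 6.22. Cruciferin genes, as CRA1 (495 FPKM at 4 h, -5.39), were among the widest falls between 4 and 8 h.

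Some genes of the dark or starved state took the opposite course. DIN1 was at 1333, 1951 and 1443 FPKM in the dark, had a mean of 247 at 4 h and was at 625, 1028 and 490.2 at 8 h (8 h against 4 h 1.58, adjusted p = 0.007). BCAT-2 and DIN3 were also higher than at 4 h (1.11 and 1.07), so that 3 of the 10 starvation genes rose in this interval and none fell. Among clock genes, LHY (1.5) and RVE2 (1.6), morning-phased factors, were higher than at 4 h, and CCA1 (-1.01) and LNK2 (-1.0) lower. These hours also differ in time of day, which cannot be told apart from the hours of light.

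**Figure D4:**
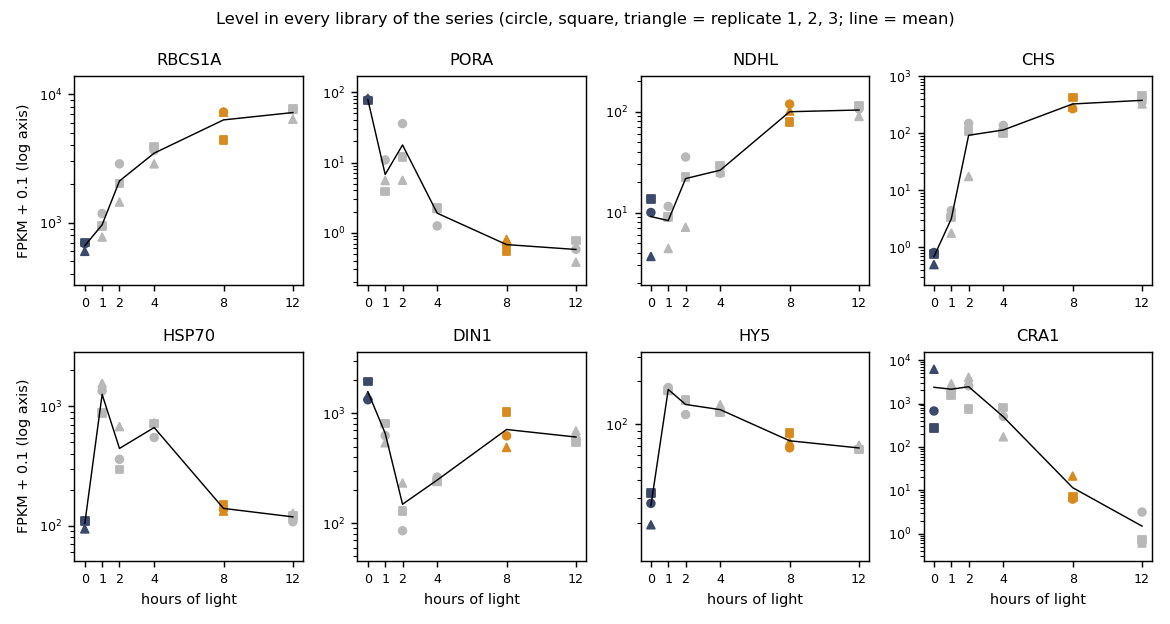
FPKM + 0.1 (vertical log axis) of 8 genes in all 18 libraries against hours of light (horizontal axis); dark libraries are blue, 8 h libraries orange, the others grey, circle, square and triangle are replicates 1, 2 and 3, and lines join the means. RBCS1A, NDHL and CHS reach their 8 h level by a rise and keep it at 12 h, PORA and CRA1 decline, and HSP70, DIN1 and HY5 turn within the 12 h.

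Between 8 and 12 h no gene (0.0% of those tested) was called by edgeR's quasi-likelihood test at the threshold used. At an unadjusted p under 0.05 there were 944 genes, DESeq2 called 7, and limma on log2(FPKM + 1) called none. HY5, at a mean of 126 FPKM at 4 h, was at 67.8, 85.97 and 74.5 FPKM at 8 h and at 66.2, 66.2 and 70.6 FPKM at 12 h.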

How the data were processed

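PolyA RNA of seedlings, as the samples are labelled, was sequenced on a BGISEQ-500 instrument, per the labels' protocols. For each library the authors deposited a gene table and a transcript table with the estimated count (RSEM's expected count) and the FPKM of each gene or transcript, per the file headers. RSEM, Bowtie2 and HISAT2 are named in the submitters' processing notes; their versions, the genome build and any strand setting are not given in the sources used here. The authors' FPKM scales a count by transcript length and library depth. Gene coordinates in the files matched RefSeq TAIR10.1 for all but 1 of 24746 loci.

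Each expected count was rounded to a whole number. A gene missing from a library's table was set to 0 there. Groups and replicate numbers come from the sample titles; at 0 h the deposited files carry other replicate numbers. All 18 libraries entered 1 fit in edgeR 4.0.16 (R 4.3.3), with a term per time point, TMM scaling, the filterByExpr filter, a quasi-likelihood F test and Benjamini-Hochberg adjustment over 20569 genes. Calls needed an adjusted p under 0.05 and an absolute log2 fold change of 1 or more. The SE given is the log2 fold change divided by the square root of F, an approximation. Where a group had at most 3 counts in each library, the fold is a lower bound against 3 counts per library, which covers counting error only. Genes with fractional expected counts (more than 0.005 from a whole number) in over 50% of libraries, or overlapping another listed locus, are named as uncertain. Levels per library are FPKM as deposited. Promoters are the 300 bases before the outermost RefSeq start; both strands were searched. Alternatives used limma 3.58.1 on log2(FPKM + 1), DESeq2 1.42.0, other scalings and filters, the compared groups alone, the replicate number as a covariate, and each library left out. No pair of libraries held identical values, and replicates differed beyond sampling noise (chi-square per gene 11.9 to 122.6 within the groups compared). The test was run on simulated counts with 200 changed genes, as many higher as lower, and no outlying library. That run does not cover data with 4641 changed genes or a library like dark replicate 3.

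Genes were named by rule: the highest and lowest fold changes, the most abundant changed genes, those at or under 3 counts in 1 group, those that differed most between 4 and 8 h, and members of gene lists written from textbook knowledge, first those with the extreme fold changes and the highest levels. The lists and the comparison were chosen with earlier results of these data known.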

Additional observations from a re-analysis of the deposited data

How the results depend on the processing

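Counts of calls against the dark depended mainly on the fold limit: by adjusted p alone, 9927 genes had changed (5173 higher, 4754 lower). Counting only genes that overlap no other locus and lack mostly fractional counts, an alternative chosen after seeing the data, gave 2998 (1756 higher), by construction from fewer genes. Limma on log2(FPKM + 1) called 3117 genes, 1932 higher and 1185 lower, with low genes shrunk by the added 1. With only the compared groups in the edgeR fit, 3880 genes had changed, 2341 higher and 1539 lower, against 4641 with all 18 libraries. Leaving out each library in turn gave 4104 to 5342 changed genes, 2437 to 3422 higher and 1570 to 1954 lower. Higher genes made up 56.1% to 64.1% of the calls over the alternatives that keep the fold limit (60.1% as reported). Against 4 h, where 734 genes had changed, limma called 414 (180 higher and 234 lower), adjusted p alone 2349 and the genes without overlap or mostly fractional counts 483. Leave-outs gave 389 to 965, with 450 without 4 h replicate 3, 389 without 8 h replicate 1 and 431 without 8 h replicate 3; the cause was not tested. Between 12 and 8 h, DESeq2 called 7 genes and each other setting 0. With the replicate number as a block, 4556 genes differed from the dark, 701 from 4 h and 0 between 12 and 8 h, and LNK2 (-0.98), RPS3 (-0.99) and ERF105 (adjusted p = 0.056 in edgeR) were no longer called. Same-numbered dark and 8 h libraries deviated together at correlations of 0.011, 0.115 and 0.24, and dark replicate 1 correlated best with 8 h replicate 2 (0.104), so the numbers, those of the titles, were not taken to pair the libraries.

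Of 131 named genes called against the dark, 110 were called under each alternative and none changed sign. The list median of root hair markers, 1.08 in the fit of all 18 libraries, was -0.03 with only the compared groups. Uncalled genes near 0 crossed it. HEMA2 was at -0.02 with DESeq2 and RLE size factors, -0.04 with library size alone, -0.03 in limma, -0.01 with only the compared groups and -0.02 to 0.04 in leave-outs. RGA was at -0.02 in DESeq2, in limma, with RLE factors and with library size alone, at -0.01 with only the compared groups, and at -0.11 to 0.15 in leave-outs. CP12-1 was at -0.0015 with library size alone, -0.00028 in limma and -0.02 to 0.10 in leave-outs. TOC159 was at -0.0042 in DESeq2, -0.0043 with RLE factors, -0.02 with library size alone and -0.02 to 0.11 in leave-outs. Leave-outs took LHY from -0.45 to 0.03, HSP101 from -0.17 to 0.04, HDR from -0.20 to 0.16, GLK2 from -0.01 to 0.25 and LDOX, at trace counts, from -1.86 to 5.02. No direction is given for these genes at 8 h against dark; the cause was not tested. At the lowest counts, the floor of 3 counts limits folds to lower bounds.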

Other observations

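Few cell division genes were called at 8 h, though most had a positive log2 fold change. These were 21 of the 23 cyclin and CDKB genes (median 0.26) and 10 of the 11 replication genes (median 0.82). The replication median was 1.05 without dark replicate 3 and 0.28 without 8 h replicate 3. Of 23 cyclin A, cyclin B and CDKB genes, 1 fell and none rose, CYCB1;5 from 5.25, 6.48 and 3.14 FPKM in the dark to 2.16, 1.92 and 1.97 (-1.18, adjusted p = 0.0019 in edgeR's quasi-likelihood test), with fractional counts throughout and a call lost without dark replicate 2 (-0.88). Without dark replicate 3, 2 genes of that list were higher. Of 11 genes of the replication helicase and its partners, MCM10 and MCM6 rose from levels near 1 FPKM or less, and both calls were lost without 8 h replicate 3, dark replicate 1 or dark replicate 2. Of 9 tested cellulose synthase genes, CESA5 rose, from 7.54, 5.61 and 6.24 to 15.4, 14.1 and 15.8 FPKM (1.28 ± 0.29), with mostly fractional counts, and 2 were higher without dark replicate 3. Of 37 tested mitochondrial genes, RPS3 (ATMG00090), which overlaps another locus, fell (-1.02), a call that was lost without dark replicate 3 (-0.72) or 8 h replicate 2 (-0.98), and 1 gene rose without dark replicate 3.

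Among 31 ERF and DREB factors of ethylene and stress responses, 6 rose and 3 fell (29.0% called, against 22.6% of all genes tested). ERF72, the most abundant of those called, fell from 651, 542 and 604 to 185, 266 and 229 FPKM (-1.35 ± 0.28). DREB2A, known from drought and heat and overlapping another locus, went from 67.2, 63.8 and 36.01 to 129.7, 142 and 126 FPKM (1.26 ± 0.26), a call that was lost without dark replicate 3. ERF105 counts among the 6, a call that was lost without 8 h replicate 2 or any 1 dark library. Its RNA was in 8 h replicate 2 alone (31.0 FPKM, 0 in the other 5 libraries), with fractional counts and an overlapping locus.

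Transcript shares gave a readout beside the gene level. In 70 of 5276 genes (1.33%) with at least 2 transcripts and a summed transcript FPKM of at least 5 in each library, the share of a transcript differed by at least 30 percentage points between the group means, with no overlap between the groups. At the gene level, 57 of the 70 were not called, 8 were higher and 5 lower (13.6% and 9.0% of all genes tested), and 21 overlap another listed locus. In AT1G30540, chosen after its values were seen, transcript 1 held 81.9%, 75.7% and 83.3% of the FPKM in the dark libraries and 8.59%, 0% and 0% at 8 h. Its transcript 4 held 0%, 0% and 12.6% in the dark and 75.8%, 74.4% and 85.0% at 8 h. PRIN2, a protein of the plastid polymerase complex that overlaps another locus, also chosen after its values were seen, had only transcript 1 in the dark, and transcript 2 held 76.6%, 63.5% and 79.4% at 8 h. These shares rest on RSEM's division of shared reads and were not tested.

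The evening element AAATATCT was found, on either strand, within 300 bases of the start in 5.71% of all 20471 promoters, in 6.92% of those of genes that rose and in 5.24% of those of genes that fell. The lists with the highest shares were the ERF and DREB factors (10 of 31 promoters), the clock genes (5 of 18) and the flavonoid genes (3 of 14). The G-box CACGTG was in 7 of 18 clock promoters and 7 of 31 ERF and DREB promoters, against 8.19% of all.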
